A study of Mus musculus with 16 samples.

Results

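The genes described here were 40 genes of cholesterol and fatty acid synthesis, 22 in a sterol branch and 18 in a lipogenic branch. They were listed by name for their place in these pathways, and the list has no threshold on a measured value, although earlier results of these data were known when it was drawn up. All 40 had a probe on the array that was well above background on 16 of 16 arrays, and they were 40 of the 13301 genes tested. Each gene was read through its brightest probe. Liver RNA of 16 male mice was measured on 1-colour arrays, 1 array per mouse and 4 mice per group, to ask how loss of Gadd45b changes the response of the liver to phenobarbital (PB). All 16 mice had been given diethylnitrosamine (DEN), which initiates liver tumours, as 90 mg/kg when they were 5 weeks old. The WT DEN and KO DEN groups received DEN alone, and the WT DEN + PB and KO DEN + PB groups also drank PB at 0.5 g/l from 7 weeks until the livers were taken at 57 weeks. WT mice were C57BL/6J. KO mice carried a null allele of Gadd45b in the whole animal, and the name of their stock gives a 129 substrain beside C57BL/6, while the study elsewhere describes both genotypes as being of C57BL/6J background. How much 129 sequence the KO mice held was not measured, and its part in a difference between KO and WT cannot be told apart from that of the null allele. No mouse without DEN was measured, and by the study's methods the RNA came from non-tumorous regions of the liver.

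Cholesterol is built from acetyl-CoA through mevalonate, isoprenoids, squalene and lanosterol, and the liver is a major site of its synthesis. The same acetyl-CoA is carboxylated to malonyl-CoA and built into fatty acids, which are then elongated, desaturated and joined to glycerol. Srebf2 encodes the transcription factor best known for driving the sterol genes, Srebf1 and Mlxipl encode the factors best known for driving lipogenesis, and the proteins of Insig1 and Insig2 hold the Srebf products in the endoplasmic reticulum while sterols are plentiful. PB is known in mouse liver as an activator of the nuclear receptor CAR, which induces Cyp2b10.

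Promoters are shown for the 5 members that were called in a comparison and for Hmgcs1, a sterol gene whose window held the sterol regulatory element. RefSeq windows of assembly GRCm38.p6, from 250 bases before to 50 after each start, were found for 32 of the 40 members, with 42 windows in all. On either strand, the sterol regulatory element TCACNCCAC was found in 2 of the 32 members, Hmgcs1 and Mlxipl (6.25%, against 1.44% of the 27025 genes with a window). The E-box CACGTG was found in 6 of 32 (18.8% against 8.09%) and the NF-Y box CCAAT in 28 of 32 (87.5% against 41.1%), namely in 17 of 18 sterol and 11 of 14 lipogenic members. These shares describe letters in a window and are not binding sites. The 250 bases before the start are printed 5′ to 3′ on the strand of the gene, from the first window listed, with matches to the 3 motifs in capitals (CCAAT or ATTGG, and TCACCCCAC in Hmgcs1). Srebf1 had a second window, chr11:60210422-60210721 (reverse strand), which is not printed, and which start gave the liver signal was not tested. Acat2 held no match in the bases printed. The windows are chr13:119690101-119690350 (forward strand) for Hmgcs1, chr3:89454291-89454540 (forward strand) for Pmvk, chr17:12960726-12960975 (reverse strand) for Acat2, chr11:60222582-60222831 (reverse strand) for Srebf1, chr19:55127239-55127488 (reverse strand) for Gpam and chr15:84167566-84167815 (forward strand) for Pnpla3.
Hmgcs1: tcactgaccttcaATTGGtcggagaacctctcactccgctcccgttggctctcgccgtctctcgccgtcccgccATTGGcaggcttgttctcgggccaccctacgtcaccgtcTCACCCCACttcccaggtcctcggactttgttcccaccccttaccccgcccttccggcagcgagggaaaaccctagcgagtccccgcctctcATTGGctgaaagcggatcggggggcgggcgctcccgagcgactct
Pmvk: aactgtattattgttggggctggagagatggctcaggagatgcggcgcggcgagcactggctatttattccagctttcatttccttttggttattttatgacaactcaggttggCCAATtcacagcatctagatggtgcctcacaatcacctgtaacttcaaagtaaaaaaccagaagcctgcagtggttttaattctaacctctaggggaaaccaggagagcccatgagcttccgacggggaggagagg
Acat2: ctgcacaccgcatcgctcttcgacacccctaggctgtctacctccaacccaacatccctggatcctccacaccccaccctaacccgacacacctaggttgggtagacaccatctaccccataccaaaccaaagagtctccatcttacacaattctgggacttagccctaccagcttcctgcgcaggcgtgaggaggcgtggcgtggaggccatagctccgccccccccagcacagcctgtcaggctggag
Srebf1: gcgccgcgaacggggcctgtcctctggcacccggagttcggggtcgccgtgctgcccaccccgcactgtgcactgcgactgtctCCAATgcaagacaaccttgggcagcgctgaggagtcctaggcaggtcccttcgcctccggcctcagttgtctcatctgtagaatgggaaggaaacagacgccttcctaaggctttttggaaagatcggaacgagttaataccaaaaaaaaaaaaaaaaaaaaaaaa
Gpam: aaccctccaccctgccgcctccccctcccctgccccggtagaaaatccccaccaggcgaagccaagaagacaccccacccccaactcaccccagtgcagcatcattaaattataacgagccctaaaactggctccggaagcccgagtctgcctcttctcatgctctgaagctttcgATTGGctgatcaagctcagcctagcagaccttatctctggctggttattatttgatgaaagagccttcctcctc
Pnpla3: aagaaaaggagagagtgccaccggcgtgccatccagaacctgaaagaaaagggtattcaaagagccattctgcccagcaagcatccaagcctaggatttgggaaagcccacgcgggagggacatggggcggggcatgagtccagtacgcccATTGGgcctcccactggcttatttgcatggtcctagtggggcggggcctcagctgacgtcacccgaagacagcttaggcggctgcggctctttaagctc

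The labels were checked first. The Gadd45b probe passed the background test in 8 of 8 WT livers and in 0 of 8 KO livers. The mean log2 signal of Cyp2b10 went from -0.92 to 5.77 in WT and from -1.28 to 5.52 in KO with PB. The 75th percentile of the signal lay between 137 and 294 across arrays, and arrays of 1 group correlated with r between 0.974 and 0.992 over probes. All levels below are log2 processed signals relative to the 75th percentile of the array, so that 0 is the brightness of that percentile, and they compare samples for 1 gene but not genes with each other. A gene was called at a limma adjusted p under 0.05, taken over all 24454 probes tested, and a change of 1.5-fold or more.

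Across the 5 comparisons, 5 of the 40 genes were called, each in 1 comparison. Pmvk and Srebf1 were lower with PB in KO. Under DEN + PB, Acat2 was higher and Gpam and Pnpla3 were lower in KO than in WT. No member was called for the PB effect in WT, for KO against WT under DEN, or for the difference between the PB effects. In each comparison at least 37 of the 40 members were not called.

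**Figure D1:**
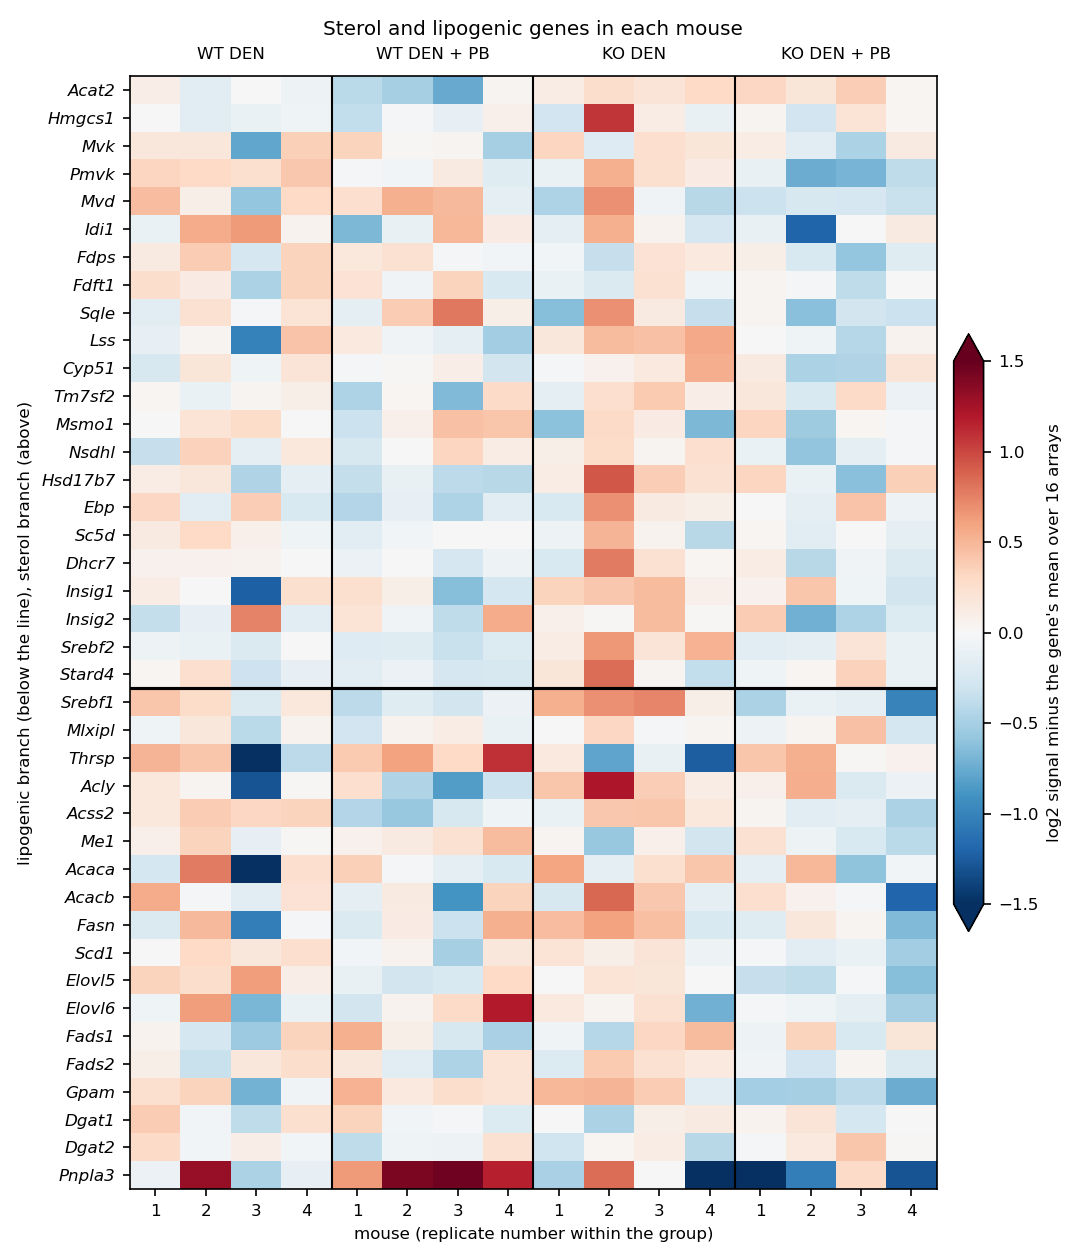
Log2 signal of the 40 genes (rows, sterol branch above the line and lipogenic branch below) in the 16 mice (columns, 4 per group), as the difference from each gene's mean over the 16 arrays. Colours end at -1.5 and 1.5. KO DEN replicate 2 stood out as red over many sterol genes, WT DEN replicate 3 as blue over several lipogenic genes, and Pnpla3 as blue in 3 of the 4 KO DEN + PB mice.

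PB effect in WT. The comparison asks what PB added to DEN in mice with Gadd45b. None of the 40 members was called, where 0.737% of all genes tested were called, 0.654% higher and 0.0827% lower. The sterol branch had a median log2 change of -0.06, with 14 of 22 genes lower in sign, and the lipogenic branch of -0.01, with 9 of 18 lower. All genes tested had a median of -0.02 and 54.1% lower in sign. These values leaned on WT DEN replicate 3: without that array 19 of 22 sterol genes were lower, with a median of -0.19, and 13 of 18 lipogenic genes, with a median of -0.12. For 22 of 22 sterol genes and 15 of 18 lipogenic genes, the 95% interval of the change lay within 2-fold in either direction, so that larger changes were outside the intervals of those genes.

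By brightest probe, the lowest adjusted p of a member in WT belonged to Acss2, which makes acetyl-CoA from acetate. Its 4 levels were 5.00, 5.23, 5.16 and 5.19 in WT DEN and 4.40, 4.28, 4.61 and 4.78 in WT DEN + PB. The groups did not overlap, and the log2 change was -0.63 ± 0.16 (SE), but it was not called (limma adjusted p = 0.121). Pmvk and Dhcr7 were the other members whose 4 PB levels all lay under the 4 DEN levels. This made 3 of 40 members, and none was higher without overlap, where 1.95% of all genes were lower and 3.21% higher without overlap (5.16% in all). Thrsp, a lipogenic protein that responds to thyroid hormone and carbohydrate, had a log2 change of 0.96 ± 0.43 (SE) with overlapping groups (limma adjusted p = 0.657). WT DEN replicate 3 had the lowest Thrsp level of all 16 mice at 3.45, against 5.03 to 5.94 in the other WT DEN mice. The 5 regulators had small changes, from -0.39 ± 0.21 (SE) for Srebf1 to 0.07 ± 0.28 (SE) for Insig1, and limma adjusted p of 0.762 to 1.00.

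PB effect in KO, sterol branch. In KO the sterol genes lay lower with PB in 20 of 22 cases, with a median log2 change of -0.25, where all genes tested had a median of 0.01 and 48.1% lower in sign. Only 1 of the 22 was called. This was Pmvk, which phosphorylates mevalonate phosphate. Its levels were 4.93, 5.57, 5.27 and 5.16 in KO DEN and 4.92, 4.28, 4.34 and 4.65 in KO DEN + PB. The lowest KO DEN mouse lay just above the highest KO DEN + PB mouse. Pmvk fell by 0.68 on the log2 scale (SE 0.16, 1.61-fold, limma adjusted p = 0.0441), and its second probe had a change of -0.67 at an adjusted p of 0.0511. In WT, where the 4 PB levels also lay below the 4 DEN levels, the change was -0.35 ± 0.16 (SE) and was not called (adjusted p = 0.683). The call in KO was close to the threshold: it was lost in 12 of 16 fits that left out 1 array, with adjusted p of 0.0501 to 0.156. Without a WT array the change in KO stayed at -0.68, and only the spread pooled over groups and the adjustment moved. The call was kept without WT DEN replicate 3, WT DEN + PB replicate 4, KO DEN replicate 1 or KO DEN + PB replicate 1. With the replicate number as a block it was also lost (adjusted p = 0.0889), as it was with the slide as a block (adjusted p = 0.0628).

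Among the later sterol steps, Lss, which folds the squalene epoxide into lanosterol, and Nsdhl, which takes part in the removal of methyl groups from lanosterol, had PB levels in KO that all lay below the DEN levels. Neither was called, with changes of -0.52 ± 0.24 (SE, limma adjusted p = 0.410) and -0.38 ± 0.18 (SE, adjusted p = 0.416). Msmo1, an oxidase of the same demethylation, and Acat2, which joins acetyl-CoA at the start of the pathway, were the 2 genes with a positive sign, at 0.17 ± 0.24 and 0.00 ± 0.16 (SE). Srebf2 had a change of -0.42 ± 0.14 (SE, adjusted p = 0.188), Insig2 of -0.40 ± 0.27 and Insig1 of -0.28 ± 0.28, none called. The lower sterol levels in KO leaned on 1 mouse: KO DEN replicate 2 had the highest level of its group for 13 of 22 sterol genes. Without that array 15 of 22 sterol genes were lower in sign and the median was -0.17.

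PB effect in KO, lipogenic branch. The lipogenic genes had a median log2 change of -0.33 in KO, with 14 of 18 lower in sign, where all genes tested had a median of 0.01. Without KO DEN + PB replicate 4 the lipogenic median was -0.22, with 12 of 18 lower. It was also -0.22 without KO DEN replicate 2, with 15 of 18 lower. Of the 18 genes, 1 was called. Srebf1, the regulator of the branch, was at 6.43, 6.59, 6.64 and 5.99 in KO DEN and at 5.43, 5.81, 5.76 and 4.91 in KO DEN + PB. The groups did not overlap, and KO DEN + PB replicate 4 was the lowest of all 16 mice. Srebf1 fell by 0.94 on the log2 scale (SE 0.21, 1.91-fold, limma adjusted p = 0.0268). It had 1 probe. The call was lost, with adjusted p of 0.0585 to 0.0798, without any one of KO DEN replicates 1, 2 and 3 and KO DEN + PB replicates 1 and 4. Within the 3 slides that held both KO groups, the differences were from -1.68 to -0.55, and with the slide as a block the change was not called (limma adjusted p = 0.0719). In WT, Srebf1 had a change of -0.39 ± 0.21 (SE, adjusted p = 0.762).

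The genes known as targets of Srebf1 that are named next were not called in KO, and all were lower in sign. This list is not complete, and Gpam, Elovl5 and Acss2 of the same branch are given after it. The 4 members of the branch that were higher in sign in KO were Thrsp, Me1, Dgat1 and Dgat2, none of them called. The largest of these changes was that of Thrsp, at 0.76, from a mean of 4.92 in KO DEN to 5.68 in KO DEN + PB. Fasn, the fatty acid synthase, had a log2 change of -0.48 ± 0.30 (SE, limma adjusted p = 0.588), Acly of -0.45 ± 0.32, Acaca of -0.35 ± 0.37, Scd1 of -0.31 ± 0.16 and Elovl6 of -0.10 ± 0.31. Mlxipl, which answers to carbohydrate, had a change of -0.05 ± 0.17 (SE) and its 95% interval ran from -0.41 to 0.31. Gpam, which adds the first acyl chain to glycerol phosphate, came next to the threshold. Its levels were 0.34, 0.35, 0.23 and -0.33 in KO DEN and -0.66, -0.66, -0.55 and -0.90 in KO DEN + PB, without overlap, and its change of -0.84 ± 0.21 (SE) had an adjusted p of 0.0597. It was called without WT DEN replicate 3 (adjusted p = 0.0157) or KO DEN replicate 4 (adjusted p = 0.0314). The WT array is not in this comparison: without it the change stayed at -0.84, and only the pooled spread and the adjustment moved. Elovl5, an elongase of polyunsaturated fatty acids, also had non-overlapping groups and a change of -0.45 ± 0.17 (adjusted p = 0.253). The change of Acss2 with PB was -0.40 ± 0.16 (SE, limma adjusted p = 0.285) in KO, where its groups overlapped. Acss2 was thus lower in sign in both genotypes, with -0.63 in WT, and was called in neither.

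In all, 2 of the 40 members were called with PB in KO, both lower, where 2.13% of all genes were called, 0.872% lower and 1.26% higher. Groups did not overlap for 6 members, all lower (Pmvk, Lss, Nsdhl, Srebf1, Elovl5 and Gpam), where 8.6% of all genes did not overlap, 4.01% lower and 4.59% higher. The 95% interval lay within 2-fold for 20 of 22 sterol and 10 of 18 lipogenic genes. In the same comparison 8 of 12 clock genes tested were called, 5 higher and 3 lower, among them Dbp (4.49 ± 0.55, SE) and Arntl (-2.17 ± 0.43, SE), and none of the 12 was called in WT. Dbp was at 0.49 to 0.92 in KO DEN and at 3.45 to 6.22 in KO DEN + PB. The 2 WT groups lay at 3.47 to 5.49. Of 9 fasting genes tested, Pdk4 was called lower (-1.33 ± 0.30, SE). The part of the clock and fasting genes in the levels of Pmvk and Srebf1 was not tested.

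**Figure D2:**
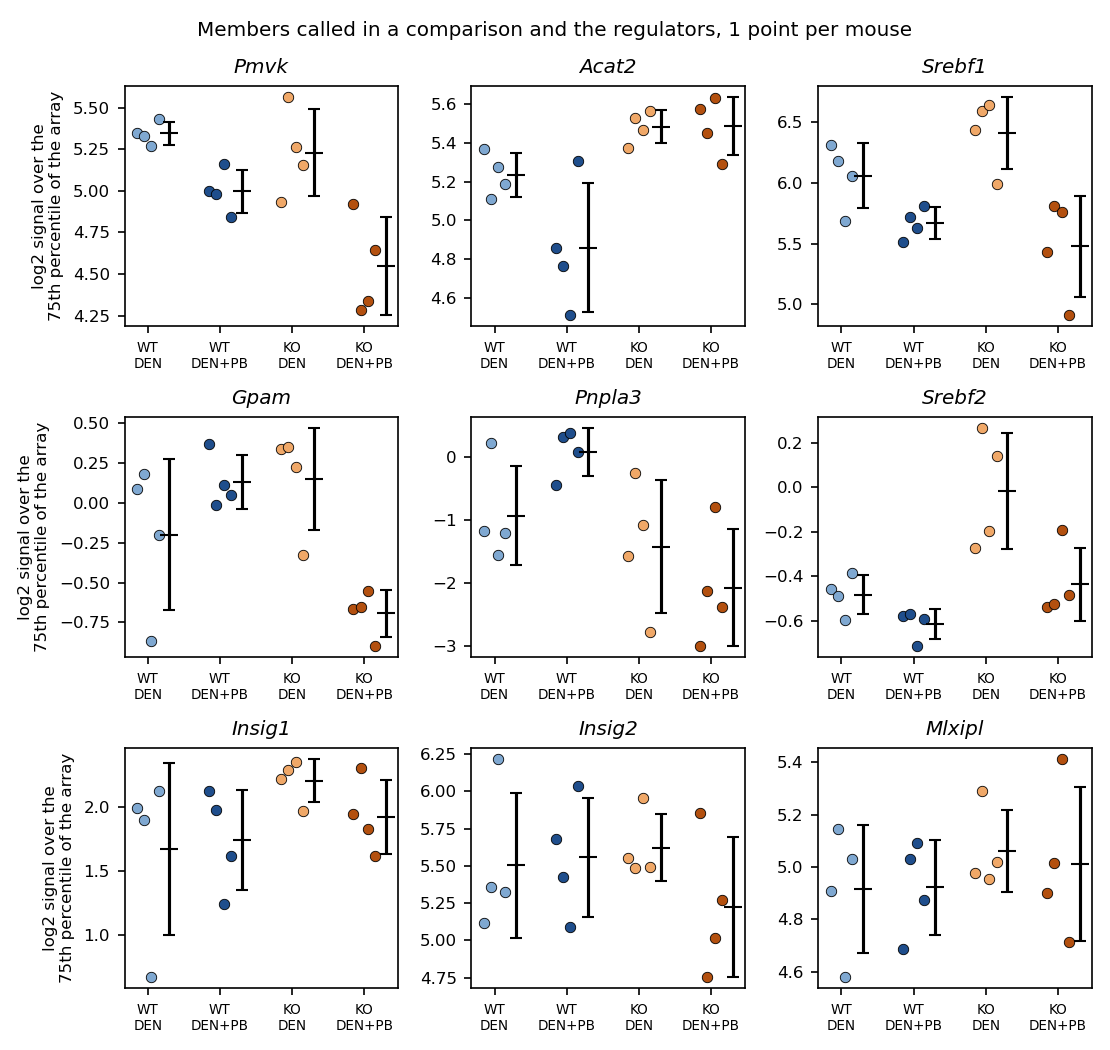
Log2 signal relative to the 75th percentile of the array for the 5 called members (Pmvk, Acat2, Srebf1, Gpam and Pnpla3) and the regulators Srebf2, Insig1, Insig2 and Mlxipl, 1 point per mouse, with mean and SD of the 4 mice to the right of each group. Vertical axes differ between panels. Srebf1 and Gpam were lowest in KO DEN + PB without overlap with KO DEN, Acat2 had its lowest mean in WT DEN + PB, and the groups of Mlxipl overlapped.

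Difference between the PB effects. The PB effects in WT and KO share no array, and their difference was tested directly. None of the 40 members was called, and by its brightest probe none of the 13301 genes was (0%). With limma at an unadjusted p under 0.05 there were 2 members and 880 genes, and the alternative settings called 0 to 4 genes and 0 members. In sign, 6 of 22 sterol and 3 of 18 lipogenic genes had a lower PB effect in WT than in KO, where 56% of all genes did. Without WT DEN replicate 3 the counts were 8 and 6, and without both WT DEN replicate 3 and KO DEN replicate 2 they were 12 and 7. The 2 members were Gpam and Pnpla3, both of glycerolipid turnover. For Gpam the change with PB was 0.33 ± 0.21 in WT and -0.84 ± 0.21 in KO, a difference of 1.17 ± 0.30 (SE, limma adjusted p = 0.363, 95% interval 0.53 to 1.81). For Pnpla3 the changes were 1.01 ± 0.51 and -0.65 ± 0.51, a difference of 1.67 ± 0.73 (SE, adjusted p = 0.787, 95% interval 0.12 to 3.21). For Pmvk and Srebf1, called in KO, the differences were 0.33 ± 0.23 and 0.55 ± 0.29 (SE), with adjusted p of 0.955 and 0.895. A different PB effect in the genotypes was not shown for any member. The 95% interval of the difference lay within 2-fold for 17 of 22 sterol and 9 of 18 lipogenic genes, so that for the others a difference of 2-fold was not outside it.

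**Figure D3:**
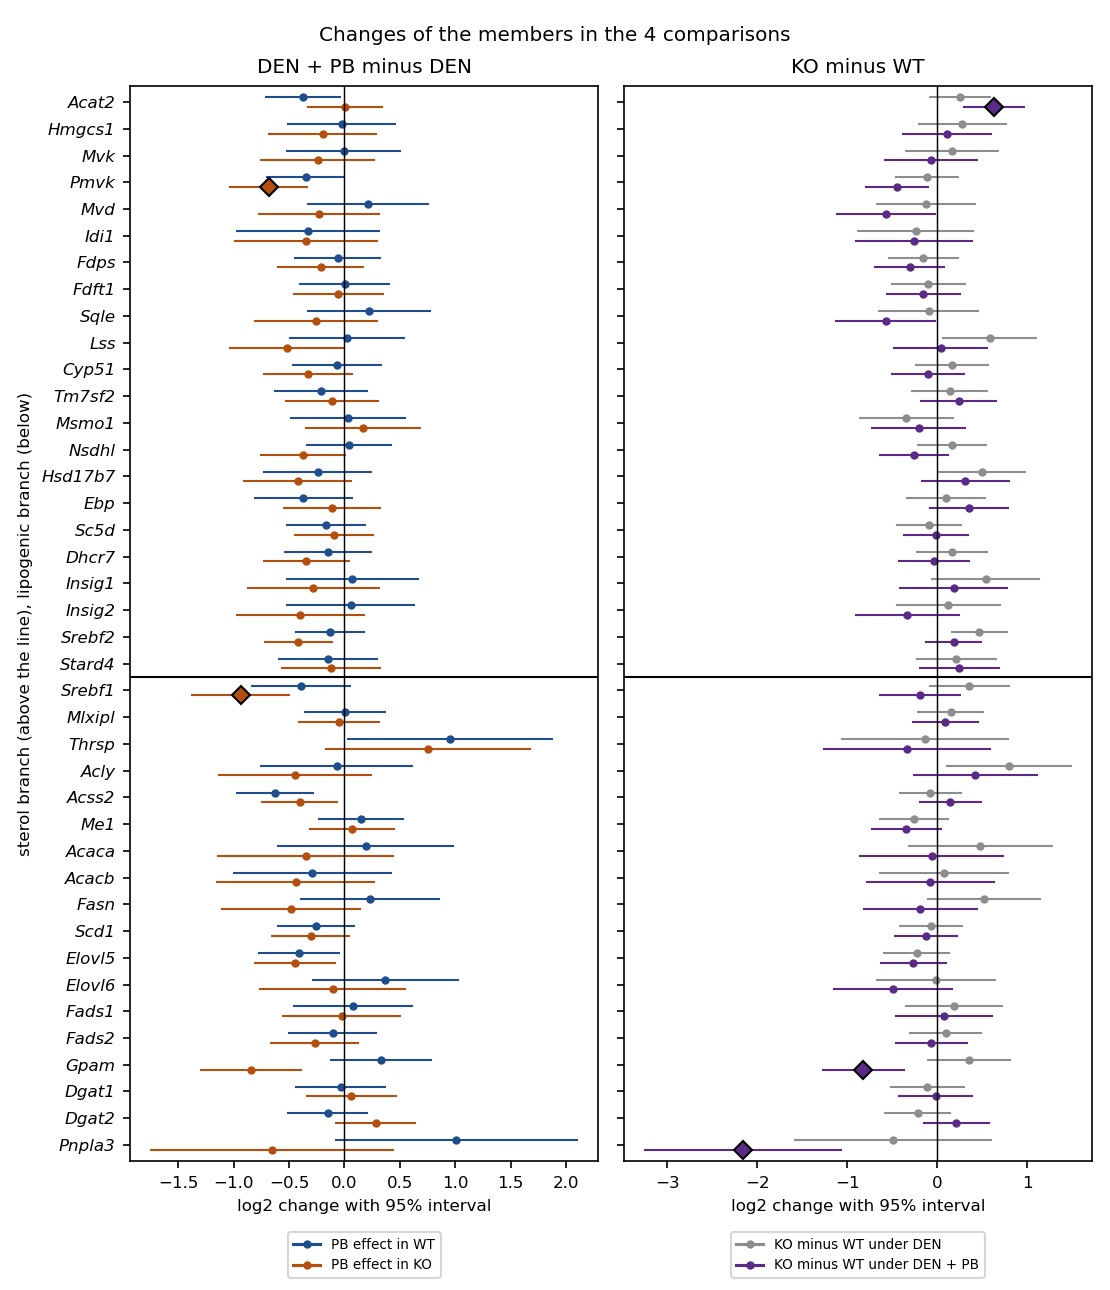
Log2 change of each of the 40 genes with its 95% interval. The left panel gives DEN + PB minus DEN in WT (blue) and KO (orange), the right panel KO minus WT under DEN (grey) and under DEN + PB (purple). Diamonds are called changes and dots are not called. The 2 diamonds on the left are Pmvk (-0.68) and Srebf1 (-0.94) in KO, and the 3 on the right are Acat2 (0.63), Gpam (-0.82) and Pnpla3 (-2.16) under DEN + PB.

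KO against WT under DEN. None of the 40 members was called, where 2.76% of all genes were, 1.02% higher and 1.74% lower. The sterol branch had a median difference of 0.15 and 14 of 22 genes higher in sign, and the lipogenic branch a median of 0.03 and 9 of 18 higher, beside -0.04 and 54.9% lower in sign for all genes. Without KO DEN replicate 2 the sterol median was -0.01, and without WT DEN replicate 3 the lipogenic median was -0.05. Srebf2 came nearest to a call. Its levels were -0.46, -0.49, -0.60 and -0.38 in WT DEN and -0.27, 0.27, -0.20 and 0.14 in KO DEN, without overlap, a difference of 0.47 ± 0.14 (SE, limma adjusted p = 0.0821) that was under 1.5-fold. Acat2 was the other member without overlap, at 5.11 to 5.37 in WT and from just above that, 5.37, to 5.57 in KO (0.25 ± 0.16, SE, adjusted p = 0.397). Higher without overlap were thus 2 of 40 members and lower none, where 4.59% and 6.34% of all genes were (10.9% in all).

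Insig1, itself a well known target of the sterol pathway, had a difference of 0.53 ± 0.28 (SE, limma adjusted p = 0.297), with WT DEN replicate 3 at 0.66 and the other WT DEN mice at 1.89 to 2.12. Acly, which splits citrate to give acetyl-CoA, had 0.80 ± 0.32 (SE, adjusted p = 0.177), and the same mouse was at 0.68 against 1.98 to 2.13. Insig2, Srebf1 and Mlxipl had 0.12 ± 0.27, 0.35 ± 0.21 and 0.15 ± 0.17 (SE), none called. Lss, with 0.58 ± 0.24 (SE, adjusted p = 0.194), is the 1 member on chromosome 10 with Gadd45b, 4.40 Mb away, and what the strain of that region adds was not tested. Beside these values, the clock genes Dbp and Nr1d1 were called lower in KO (-3.41 ± 0.55 and -1.66 ± 0.27, SE).

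KO against WT under DEN + PB. Of the 40 members, 3 were called, 1 higher and 2 lower, where 7.6% of all genes were called, 1.76% higher and 5.84% lower. The count was near the share of all genes. Groups did not overlap for 4 members, Srebf2 higher and Mvd, Gpam and Pnpla3 lower, where 17.3% of all genes did not overlap, 7.47% higher and 9.86% lower. The median difference was -0.05 in the sterol and -0.10 in the lipogenic branch, beside 0.03 and 46.4% lower in sign for all genes. Acat2, the only sterol gene called, was at 4.86, 4.77, 4.51 and 5.30 in WT and 5.57, 5.45, 5.63 and 5.29 in KO. WT DEN + PB replicate 4 lay just above the lowest KO mouse, so the groups overlapped. Acat2 was higher in KO by 0.63 ± 0.16 (SE, 1.54-fold, limma adjusted p = 0.0230). With quantile normalization the difference was 0.52, under 1.5-fold, and without scaling between arrays it was 0.29, where the median of all genes lay at -0.31. The call was lost, with adjusted p of 0.0515 to 0.0758, without WT DEN + PB replicate 2 or 3 or KO DEN + PB replicate 1, 2 or 3. The change of Acat2 with PB was 0.00 ± 0.16 (SE) in KO and -0.37 ± 0.16 in WT, neither called (limma adjusted p = 0.999 and 0.583).

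Pnpla3, a lipid droplet protein with lipase and transacylase activity, had the largest difference of any member in any comparison. It was at -0.46, 0.32, 0.37 and 0.07 in WT DEN + PB and at -3.00, -2.12, -0.80 and -2.39 in KO DEN + PB. The groups did not overlap, though KO DEN + PB replicate 3 lay near the lowest WT mouse. The difference was -2.16 ± 0.51 (SE, 4.46-fold lower in KO, limma adjusted p = 0.0176). Its size depended on the processing. Over the 14 other settings the difference ran from -2.49 to -1.20, and it was smallest under normexp background correction (limma adjusted p = 0.176). Within slides it was from -3.07 to -1.18. The call was lost without WT DEN + PB replicate 3 (adjusted p = 0.0518) or KO DEN + PB replicate 4 (adjusted p = 0.0512). Under DEN alone the levels were -1.56 to 0.21 in WT and -2.78 to -0.25 in KO, and neither that difference nor either PB effect was called. Under DEN + PB, 3 of the 4 KO and 2 of the 4 WT levels lay within the range of the 8 DEN levels.

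Gpam was at 0.37, -0.01, 0.11 and 0.05 in WT DEN + PB and, as above, at -0.90 to -0.55 in KO DEN + PB. Every KO mouse lay below every WT mouse, by -0.82 ± 0.21 (SE, 1.77-fold, limma adjusted p = 0.0276), and within slides by -1.02 to -0.66. With the slide as a block it was not called (adjusted p = 0.0549). The call was also lost, with adjusted p of 0.0574 to 0.0809, without WT DEN + PB replicate 1, 3 or 4 or KO DEN + PB replicate 2 or 4. The acyltransferases of the last step of triglyceride synthesis were not called, with differences of -0.02 ± 0.19 for Dgat1 and 0.21 ± 0.17 (SE) for Dgat2. Fasn, Acaca, Scd1 and Srebf1 were not called either, with differences of -0.19, -0.06, -0.12 and -0.19. Mvd, which makes isopentenyl diphosphate, was lower without overlap (-0.57 ± 0.26, SE, adjusted p = 0.195), and Sqle, the squalene epoxidase, had the same difference of -0.57 ± 0.26 with overlap (adjusted p = 0.200). Srebf2 was higher without overlap by only 0.18 ± 0.14 (SE, adjusted p = 0.481). Insig1, Insig2 and Mlxipl had differences of 0.18 ± 0.28, -0.33 ± 0.27 and 0.09 ± 0.17 (SE), none called.

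Markers of other cells moved in the same comparison. Under DEN + PB, 6 of 7 leukocyte markers tested were called lower in KO, as were 3 of 7 stellate, 2 of 6 endothelial and 3 of 5 cholangiocyte markers. Of 7 hepatocyte markers 1, Tat, was called higher. Tat is also on the list of fasting genes, of which 2 of 9 tested were called there, 1 higher and 1 lower. Under DEN alone 2 of 7 leukocyte, 2 of 6 endothelial and 2 of 4 adipocyte markers tested were called lower in KO. These adipocyte markers were Cfd (-3.17 ± 0.54, SE) and Retn (-2.01 ± 0.42, SE). With PB in WT, 2 of 5 cholangiocyte markers were called higher, where 0.654% of all genes were. In that comparison 7 of 7 hepatocyte markers were lower in sign, with a median log2 change of -0.26 and none called. Summed levels of the lists were taken in units of the 75th percentile of the array. Under DEN + PB that of the leukocyte list was 21.6 to 25.2 in WT and 8.16 to 12.4 in KO. That of the hepatocyte list was 1086 to 1289 in WT and 1361 to 1648 in KO. Under DEN alone the leukocyte list was at 18.6 to 36.8 in WT and 11.4 to 14.8 in KO. The hepatocyte list was then at 1153 to 1499 and 1407 to 1601, with overlap. In bulk liver, fewer cells of a type and less RNA per cell cannot be told apart. Of the other adipocyte markers, Lep and Plin1 were well above background on 0 arrays and Adipoq on 1. The part of these markers in the values of Acat2, Gpam and Pnpla3 was not tested.

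For 22 members there was more than 1 probe, 68 probes in all, of which 66 were tested. The probes of Stard4, a carrier of cholesterol between membranes, disagreed. Under DEN + PB its brightest probe was higher in KO by 0.24 ± 0.21 (SE, limma adjusted p = 0.512), while both dimmer probes were called lower, by -0.59 ± 0.16 (adjusted p = 0.0379) and -0.60 ± 0.15 (adjusted p = 0.0258). These were the only calls among the dimmer probes of the members. A dimmer probe of Elovl5 came near one for PB in WT, at -0.71 ± 0.16 (SE, adjusted p = 0.0577), where the brightest probe was at -0.41 ± 0.17 (adjusted p = 0.568). For Stard4 in KO against WT under DEN, the 2 dimmer probes were at -0.58 and -0.47 and the brightest at 0.21. The direction for Stard4 thus depends on the probe in both comparisons of KO with WT and is given here as unsettled.

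The mice of 1 group differed in these genes about as much as in others. The median SD within groups was 0.29 for the sterol and 0.30 for the lipogenic genes, beside 0.27 for all genes tested. Srebf2 was the steadiest member (SD 0.16), and Pnpla3 (0.83), Thrsp (0.69) and Acaca (0.59) varied most. WT DEN replicate 3 had the lowest level of its group for 13 of 18 lipogenic genes and 10 of 22 sterol genes, where it was lowest for 21.1% and highest for 46.0% of all genes. Its Fasn was at 6.55 against 7.38 to 8.08 in the other WT DEN mice, and its Acaca at -1.25 against 0.06 to 1.10. KO DEN replicate 2 had the highest level of its group for 13 of 22 sterol genes, where it was highest for 40.7% of all genes, with Hmgcs1, which makes the precursor of mevalonate, at 7.93 against 6.58 to 6.97. KO DEN + PB replicate 4 was lowest of its group for 10 of 18 lipogenic genes, where it was lowest for 27.9% of all genes. Without WT DEN replicate 3 and KO DEN replicate 2 together, a choice made after seeing the data, the calls in KO with PB were Gpam alone in the lipogenic branch and none in the sterol branch.

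**Figure D4:**
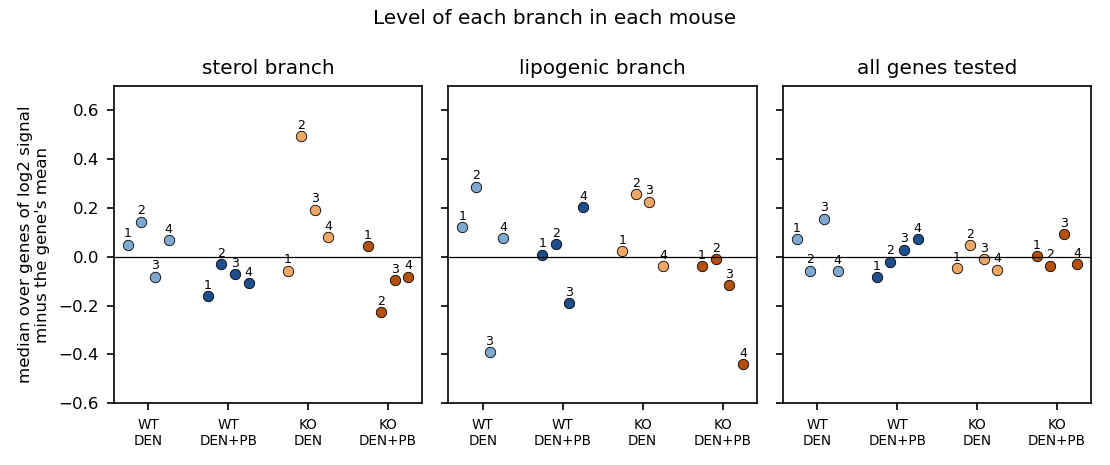
Level of the sterol branch, of the lipogenic branch and of all genes tested in each mouse (numbers are replicates), as the median over genes of the log2 signal minus the gene's mean over 16 arrays. KO DEN replicate 2 was at 0.50 in the sterol branch, WT DEN replicate 3 at -0.39 and KO DEN + PB replicate 4 at -0.44 in the lipogenic branch, while the 16 points of all genes lay between -0.08 and 0.16.

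Genes beside the pathways were read from lists of 24 sterol and 29 lipogenic neighbours. With PB no sterol neighbour of 22 tested was called in either genotype, and of 29 lipogenic neighbours Mogat2, an acyltransferase of monoacylglycerol, was called in KO alone (2.00 ± 0.44, SE, limma adjusted p = 0.0261). Its levels were -4.40 to -3.15 in KO DEN and -2.38 to -1.13 in KO DEN + PB, and its change in WT was 1.46, not called. Under DEN, KO differed from WT in Gpat3 (listed as Agpat9), which shares the step of Gpam, with 1.22 ± 0.31 (SE, adjusted p = 0.0422). Under DEN + PB, 3 sterol neighbours were called lower in KO: Mylip, which targets lipoprotein receptors for breakdown (-0.98 ± 0.20), Abcg1, which exports cholesterol (-0.87 ± 0.18), and Soat1, which esterifies cholesterol (-0.69 ± 0.20, all SE). In the same comparison the lipogenic neighbours Scd2, a desaturase, and Lpin1, a phosphatidate phosphatase, were called lower (-1.48 ± 0.20) and higher (1.35 ± 0.40, SE). Scd2 levels were 0.49 to 1.06 in WT and -1.13 to -0.29 in KO. Those of Lpin1 overlapped, at 1.97 to 2.26 in WT and 2.18 to 4.79 in KO. These 5 calls stood beside the marker calls given above, and the part of other cells in them was not tested.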

How the data were processed

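Liver RNA of 16 mice in 4 groups was hybridised to 16 arrays on 4 slides, scanned on 1 date. The scanner files deposited by the authors hold, per spot, a processed signal, an intensity on a linear scale that Feature Extraction 12.0.3.1 had corrected for background and left unscaled between arrays. Marks for background, saturation and outliers are other values of the same deposited files. The authors also deposited a table of intensity values for the series, which were the spot means of the scanner files to within 5e-04 percent. The normalization behind the study's own test is not given in the sources used here.

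From these, control spots and outlier-marked spots (71 to 122 per array) were left out, spots of a probe were averaged, and log2 signals were taken relative to the 75th percentile of each array. No spot was saturated. The share of spots marked as well above background ran from 58.3% to 67.7%, and the number of arrays limits the precision. Probes entered the test if, in 1 or more of the 4 groups, all 4 mice passed the scanner software's mark for a signal well above background. This kept 24454 of 41174 probes (59.4%) and 13301 genes. Symbols came from a RefSeq table of GRCm38.p6, while the array design was built on mm9. Group means were fitted over all 16 arrays with limma 3.58.1 in R 4.3.3, p-values were adjusted by Benjamini-Hochberg over all probes tested, and calls needed an adjusted p under 0.05 together with a 1.5-fold change. A gene was read from its brightest probe. The p-values measure the spread between mice.

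The members and lists were chosen with earlier results of these data known. All 40 members may be named, with full statistics for those called and for Srebf1, Srebf2, Insig1, Insig2 and Mlxipl, and at most 3 called neighbours per comparison. Members given beside these for non-overlapping groups, low p or a mouse that stood apart were chosen after their values were seen. Lists of fasting and clock genes and of markers of hepatocytes, adipocytes, leukocytes, stellate, endothelial, cholangiocyte and acinar cells were read for values that move with the members. Of the acinar list, 1 of 4 genes tested was called, Cel, higher in KO under DEN + PB (1.24). Same-numbered mice were not paired: over 16 pairs of arrays their deviations from the group means had r between -0.20 and 0.33. Normexp used the median spot signal, since the files hold no mean signal.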

Additional observations from a re-analysis of the deposited data

Results flagged for a closer look

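In 7 of 160 groups of 4 mice, 1 mouse stood apart from the other 3 by Dixon's rule at 95%, where chance gives about 8. WT DEN replicate 3 was the low mouse for Acly (0.68), Insig1 (0.66) and Mvk (-0.72), and WT DEN + PB replicate 3 was the low mouse for Srebf2 (-0.71). KO DEN replicate 3 was the high mouse for Insig2 (5.95). KO DEN + PB replicate 3 was the low mouse for Fdft1 (3.15) and the high mouse for Srebf2 (-0.19). Of these, 3 came from the mouse that was also lowest of its group for 13 of 18 lipogenic genes.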

How the results depend on the processing

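With PB in KO, 1 sterol gene (Pmvk) was called, and 0 were called in the series table without scaling, under normexp background correction, with no filter on dim probes, in a fit of only the arrays compared, without moderation of the variances, with the slide as a block, with the replicate block and without both WT DEN replicate 3 and KO DEN replicate 2. There 1 lipogenic gene (Srebf1) was called, and 0 were called under normexp, with no filter, with only the arrays compared, without moderation and with the slide as a block. Between KO and WT under DEN + PB, 1 sterol gene (Acat2) was called, and 0 were called with quantile normalization, in the series table without scaling, under normexp, with no filter and with only the arrays compared. There 2 lipogenic genes (Gpam and Pnpla3) were called, 0 under normexp, and 1 under normexp without outlying backgrounds, with no filter, without moderation and with the slide as a block. Leaving out 1 array at a time gave 0 to 1 sterol and 0 to 2 lipogenic genes with PB in KO, 0 to 1 sterol and 0 to 2 lipogenic genes between KO and WT under DEN + PB, and 0 in the other comparisons. Over the 14 other settings, adjusted p ran from 0.0110 to 1.00 for Pmvk (called in 6), from 0.00632 to 0.503 for Srebf1 (8), from 0.0107 to 0.510 for Acat2 (9), from 0.00631 to 0.360 for Gpam (10) and from 0.00513 to 0.176 for Pnpla3 (12). None of the 5 changes turned its sign, but several settings, such as no filter, only the arrays compared and no moderation, cannot move a change. Dropping the 1.5-fold minimum, also among the settings, cannot lose a call. Same-numbered mice were not shown to be pairs, and the replicate block took away the call of Pmvk (adjusted p = 0.0889) and no other member's. Normexp called 41 genes of the whole array with PB in KO and 36 between KO and WT under DEN + PB, against 283 and 1011, and the cause was not tested. Without scaling the median of all genes lay at -0.29 with PB in KO, -0.31 between KO and WT under DEN + PB and 0.35 for the difference of the PB effects, and higher calls made up 36.7% and 2.86% in the first 2, against 59.0% and 23.1%. The sterol genes lower in sign with PB in KO numbered 15 to 22 of 22 over all settings, and the lipogenic genes 12 to 17 of 18. With 4 mice per group, 2-fold changes were not outside the interval for up to 9 of 18 lipogenic genes, and the arrays give brightness, not molecules.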
